A study of Homo sapiens with 21 samples.

Results

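Transcripts of 10 genes of cellular iron handling were followed through all conditions of an experiment with ironomycin in MV4-11 cells, a human leukaemia line. They were the 10 genes, of 54042 in the count table, whose Ensembl identifiers map to TFRC, STEAP3, SLC11A2, FTL, FTH1, NCOA4, SLC40A1, ACO1, IREB2 and FBXL5. The cells were wild type (WT), or carried a CRISPR knockout (KO) of HK2, which encodes the glucose-phosphorylating enzyme hexokinase 2, or of PGP, which encodes phosphoglycolate phosphatase. Ironomycin, also called AM5, is a derivative of the ionophore salinomycin. WT cells received the solvent DMSO, ironomycin for 6 h or ironomycin for 24 h, and each KO received DMSO or ironomycin for 24 h, which gives 7 groups of 3 libraries. The labels give no time for DMSO and do not say whether a KO was 1 clone or a pool. Nor do they call the replicates separate cultures, and a p-value here reflects no more than the spread of these libraries, possibly a technical one.

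A cell takes up transferrin-bound iron through the transferrin receptor, reduces it in the endosome, moves it into the cytosol, and then stores it in ferritin, uses it or exports it through ferroportin. The iron regulatory proteins IRP1 and IRP2, encoded by ACO1 and IREB2, tie these steps to the iron level. When iron is scarce they bind short hairpins in messenger RNA called iron-responsive elements. An element in the 5′ untranslated region (UTR), as in the ferritins and ferroportin, then blocks translation, and elements in the 3′ UTR, as in TFRC, protect the message from decay. A count of transcripts can therefore record the second kind of control and not the first.

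Matches to 1 strict form of these elements are shown, because the iron regulatory proteins act on messages through elements of this kind. A search of the sense strand of GENCODE 29 transcripts (GRCh38) for a bulged C, 5 bases, the 6-base loop CAGTGN and 5 more bases, in which the bases on each side of the loop had to pair (A with T, G with C or G with T), found a match in 4 of the 10 members. Of 19656 genes with a protein-coding transcript, 36 (0.183%) held a match in a 5′ UTR and 132 (0.672%) in a 3′ UTR. TFRC held 4 sites, all in the 3′ UTR on the minus strand. They lay at chr3:196050979-196051008, chr3:196050575-196050604, chr3:196050510-196050539 and chr3:196050463-196050492. FTL held 1 in its 5′ UTR at chr19:48965334-48965363 on the plus strand. FTH1 held 1 in its 5′ UTR at chr11:61967574-61967603, and SLC40A1 held 1 in its 5′ UTR at chr2:189580661-189580690, both on the minus strand. The 30 bases around each loop follow, 5′ to 3′, with the loop in capitals.
TFRC site 1: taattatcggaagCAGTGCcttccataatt
TFRC site 2: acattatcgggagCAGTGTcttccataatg
TFRC site 3: tctgtatcggagaCAGTGAtctccatatgt
TFRC site 4: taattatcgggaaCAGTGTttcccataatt
FTL: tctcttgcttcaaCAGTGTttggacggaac
FTH1: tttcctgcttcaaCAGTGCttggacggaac
SLC40A1: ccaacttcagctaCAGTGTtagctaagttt
In the other 6 members no match says only that this form was not found in the UTRs searched. Elements with another loop or an unpaired base in the stem were not searched for in any member.

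Levels are CPM values, which are read counts relative to the library total scaled by TMM size factors, given for replicates 1, 2 and 3 in that order, and averages are mean ± SD with n = 3 libraries. Differences are log2 fold changes ± SE from 1 edgeR quasi-likelihood fit of all libraries, and called genes are those whose p, adjusted by Benjamini-Hochberg over all 11610 genes tested, was under 0.05. Of the 10 members, 7 passed the low-count filter, while FTH1, NCOA4 and SLC40A1 did not and are given as raw counts. In these bulk samples, fewer cells with a transcript and less of it per cell cannot be told apart.

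Library totals lay between 3829274 and 6069264 counts (median 4823817). All 9 markers of the MV4-11 line had counts in every library, and of 8 erythroid markers 3 were at 0 throughout, among them HBA1 and HBA2. EPOR had 19 to 48 counts in every library, and HBB had up to 29 counts in 13 libraries, HBG2 up to 8 in 11, HBG1 up to 2 in 6 and ALAS2 up to 2 in 2. The 8 markers summed to 25 to 30 counts in WT in DMSO, 34 to 42 at 6 h and 23 to 34 at 24 h, to 31 to 47 and 29 to 37 in the HK2 KO, and to 20 to 29 and 38 to 55 in the PGP KO in DMSO and at 24 h. Replicate 2 of WT at 6 h stood apart: across tested genes the SD of its log2 deviation from the other libraries of its group was 0.675, against 0.332 to 0.480 elsewhere. Replicate 2 of the PGP KO at 24 h held 31 counts of 4 T cell markers, against 0 to 7 in other libraries. Mitochondrially encoded messenger RNAs took 5.01% to 7.735% of counts in the DMSO libraries, 3.05% to 4.59% at 6 h and 1.78% to 3.85% at 24 h. The nuclear RNA MALAT1 took 0.198% to 0.373%, 0.236% to 0.436% and 0.449% to 0.974% in the same order. The part of these shifts in the results below was not tested. HK2 stood at 52.6 ± 14.7 CPM in WT and 22.0 ± 2.49 CPM in the HK2 KO in DMSO (-1.27 ± 0.28, edgeR adjusted p = 0.121, n = 3 libraries). The HK2 difference was not called with RLE size factors (0.119) or with any of the 6 libraries left out (-1.40 to -1.01, edgeR adjusted p = 0.0915 to 0.823), and it passed with no low-count filter (8.71e-10), with a replicate block (0.0237), in the 2 groups alone (0.00987) and in DESeq2 (0.0369). PGP stood at 90.6 ± 4.49 CPM in WT and 75.4 ± 7.10 CPM in the PGP KO (-0.26 ± 0.12, edgeR adjusted p = 0.879). These levels check neither knockout, because an edited gene can still be transcribed and its edited site is not in the labels.

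**Figure D1:**
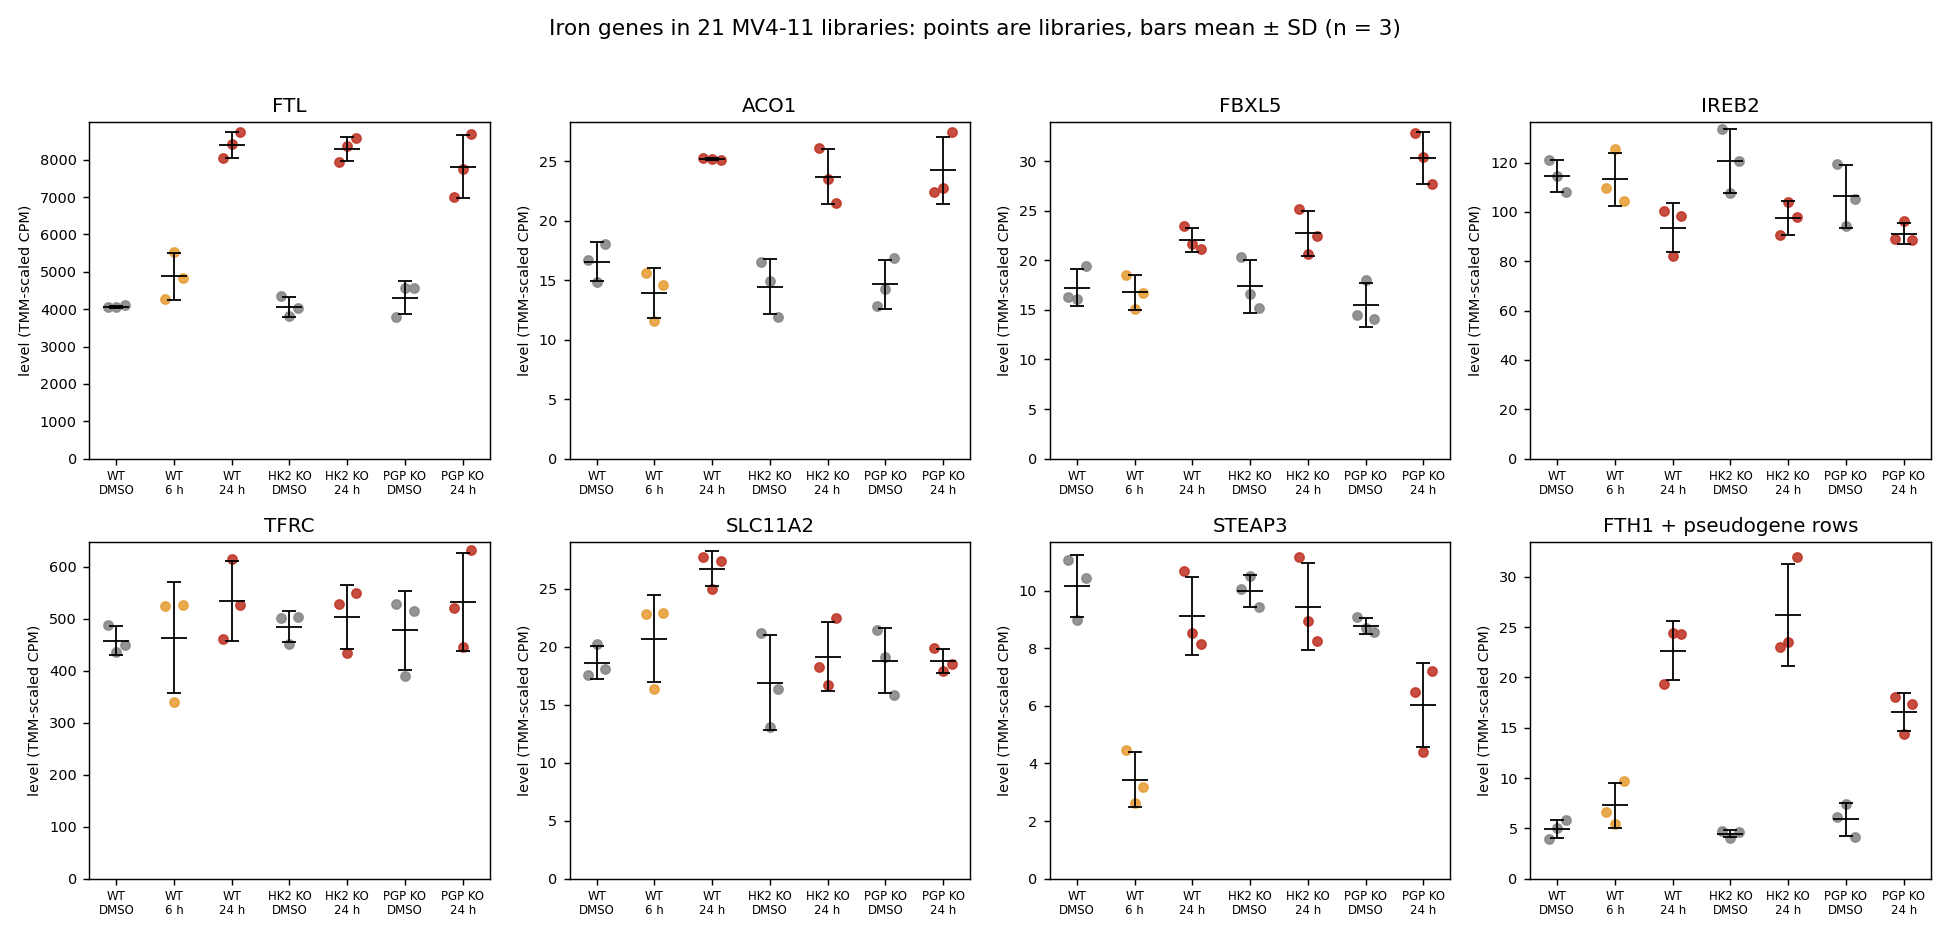
Levels of the 7 tested members and of the FTH1 row summed with its pseudogene rows, in TMM-scaled CPM on linear axes from 0, by group (grey, DMSO; orange, 6 h; red, 24 h of ironomycin). Points are libraries and bars are mean ± SD (n = 3); the 24 h libraries of FTL and ACO1 lie above all DMSO and 6 h libraries, whereas those of TFRC overlap them.

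After 24 h of ironomycin, FTL and ACO1 were higher in all 3 genotypes, and FBXL5 was called higher in the PGP KO and SLC11A2 in WT. After 6 h, STEAP3 was lower in WT and was the only member called. TFRC was called in no comparison. In DMSO no member was called between a knockout and WT, where 0.00861% (HK2 KO) and 0% (PGP KO) of all genes were called.

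The import genes come first. TFRC, the transferrin receptor, stood in WT at 489, 436 and 449 CPM in DMSO, at 525, 340.3 and 526 CPM at 6 h, and at 462, 615 and 528 CPM at 24 h. The HK2 KO had 502, 451 and 503 CPM of TFRC in DMSO and 528, 433 and 550.3 CPM at 24 h. The PGP KO had 528, 391 and 514 CPM of it in DMSO and 522, 445 and 633 CPM at 24 h. The lowest library of all was replicate 2 of WT at 6 h, which stood apart over the transcriptome too, and each group overlapped its neighbour in the order of means. That order ran from WT in DMSO (458 ± 27.6 CPM) to WT at 24 h (535 ± 76.8 CPM). The TFRC difference from DMSO was 0.02 ± 0.16 at 6 h (edgeR adjusted p = 0.946) and 0.22 ± 0.16 at 24 h in WT (edgeR adjusted p = 0.31). It was 0.05 ± 0.16 at 24 h in the HK2 KO (edgeR adjusted p = 0.833) and 0.16 ± 0.16 in the PGP KO (edgeR adjusted p = 0.485). Averaged over the 3 genotypes at 24 h it was 0.15 ± 0.09, with a 95% interval of -0.04 to 0.34 (edgeR adjusted p = 0.188). The 6 h value had no stable sign, lying between -0.08 and 0.20 when 1 library was left out, the latter without replicate 2 of WT at 6 h.

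STEAP3, the ferrireductase that reduces iron in the endosome, had low counts, from 12 to 63 per library. WT stood at 11.1, 8.97 and 10.45 CPM of STEAP3 in DMSO, at 4.48, 2.62 and 3.19 CPM at 6 h and at 10.7, 8.53 and 8.165 CPM at 24 h. All 3 libraries at 6 h lay below all DMSO and 24 h libraries of WT. STEAP3 fell by 1.56 ± 0.23 on the log2 scale at 6 h (edgeR adjusted p = 4.88e-05), and it was -1.41 without replicate 2 of that group (edgeR adjusted p = 0.00035). The summed erythroid markers were at 34 to 42 counts at 6 h against 25 to 30 in DMSO, and their part in this result was not tested. Between 6 h and 24 h it rose by 1.40 ± 0.24 (edgeR adjusted p = 0.00021), and at 24 h it stood at -0.16 ± 0.21 from DMSO (edgeR adjusted p = 0.611). The HK2 KO had 10.05, 10.5 and 9.42 CPM of STEAP3 in DMSO and 11.2, 8.95 and 8.24 CPM at 24 h, which overlap (-0.09 ± 0.21, edgeR adjusted p = 0.789). The PGP KO had 9.095, 8.71 and 8.56 CPM of it in DMSO and 6.49, 4.42 and 7.21 CPM at 24 h. These libraries of the PGP KO did not overlap, and the difference of -0.53 ± 0.22 was not called (edgeR adjusted p = 0.0762). It passed without replicate 3 of the PGP KO at 24 h (-0.69, edgeR adjusted p = 0.0448) and was -0.37 without replicate 2, the library with T cell counts (edgeR adjusted p = 0.25).

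SLC11A2 encodes DMT1, the transporter that carries ferrous iron into the cytosol. Its levels in WT were 17.5, 20.2 and 18.1 CPM in DMSO, 22.8, 16.4 and 22.9 CPM at 6 h, and 27.7, 25.0 and 27.4 CPM at 24 h. The 24 h libraries of WT were the 3 highest of all 21, and no other neighbouring groups were apart. SLC11A2 in the HK2 KO stood at 21.2, 13.1 and 16.3 CPM in DMSO and 18.3, 16.65 and 22.4 CPM at 24 h. In the PGP KO it stood at 21.4, 19.1 and 15.8 CPM in DMSO and 19.9, 17.9 and 18.5 CPM at 24 h. SLC11A2 rose in WT at 24 h by 0.52 ± 0.18 (edgeR adjusted p = 0.0275) and stood at 0.16 ± 0.18 at 6 h (edgeR adjusted p = 0.572), 0.19 ± 0.18 in the HK2 KO (edgeR adjusted p = 0.458) and 0.00 ± 0.18 in the PGP KO (edgeR adjusted p = 0.988). The call in WT was lost without DMSO replicate 1 (edgeR adjusted p = 0.0973) or 3 (0.0905), without 24 h replicate 1 (0.0805) or 3 (0.0904), and with no low-count filter (0.0847). The response of the PGP KO minus that of WT was -0.52 ± 0.25 (95% interval -1.04 to 0.01), and that of the HK2 KO minus that of WT was -0.33 ± 0.25 (-0.85 to 0.20). Neither was called, so a difference between genotypes in the SLC11A2 response was not shown.

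Among the storage genes, FTL, the ferritin light chain, had 14205 to 44968 counts per library, or 0.371% to 0.920% of all counts. FTL in WT stood at 4051, 4052 and 4100.1 CPM in DMSO, at 4285, 5527 and 4823 CPM at 6 h, and at 8041.5, 8421 and 8742 CPM at 24 h. In the HK2 KO it stood at 4341, 3817 and 4033 CPM in DMSO and at 7939.5, 8364 and 8569 CPM at 24 h. In the PGP KO it stood at 3799.9, 4568 and 4566.5 CPM in DMSO and at 7006, 7742 and 8693 CPM at 24 h. The 9 libraries at 24 h lay above the 12 others, with no overlap, and the DMSO groups overlapped each other. FTL rose at 24 h by 1.05 ± 0.10 in WT (edgeR adjusted p = 1.12e-07), by 1.03 ± 0.10 in the HK2 KO (edgeR adjusted p = 2.06e-07) and by 0.86 ± 0.10 in the PGP KO (edgeR adjusted p = 1.71e-06). From 6 h to 24 h in WT it rose by 0.78 ± 0.10 (edgeR adjusted p = 1.27e-05). All 3 libraries at 6 h were above the 3 in DMSO, but the difference of 0.26 ± 0.10 was not called (edgeR adjusted p = 0.0744). It was 0.35 without 6 h replicate 1 (edgeR adjusted p = 0.0266) and 0.16 without replicate 2, the library that stood apart (edgeR adjusted p = 0.296). The FTL response differed from that of WT by -0.02 ± 0.15 in the HK2 KO (95% interval -0.32 to 0.29) and by -0.19 ± 0.15 in the PGP KO (-0.49 to 0.12).

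FTH1, the ferritin heavy chain, had 79 counts in all under its own identifier (ENSG00000167996), in 16 of 21 libraries. Its raw counts in WT were 1, 0 and 0 in DMSO, 1, 2 and 5 at 6 h, and 15, 5 and 13 at 24 h. The HK2 KO had 3, 0 and 1 counts of FTH1 in DMSO and 4, 9 and 6 at 24 h, and the PGP KO had 1, 0 and 0 in DMSO and 9, 1 and 3 at 24 h. The 24 h libraries lay above the DMSO libraries in WT and in the HK2 KO, and touched them at 1 count in the PGP KO. Per total count, FTH1 at 24 h was 35.5 times DMSO in WT, with an exact binomial 95% interval of 5.94 to 1444 that covers counting error only. The ratio was 5.29 (1.76 to 21.4) in the HK2 KO and 12.5 (1.88 to 533) in the PGP KO, and at 6 h in WT it was 8.57 (1.15 to 380.1). These ratios rest on 1 to 4 counts in DMSO. With no low-count filter, edgeR gave the FTH1 row a log2 fold change of 4.61 ± 0.97 at 24 h in WT (edgeR adjusted p = 4.06e-05). It gave 3.17 ± 1.13 in the PGP KO (edgeR adjusted p = 0.0371). The row was not called there in the HK2 KO (2.22 ± 0.83, edgeR adjusted p = 0.0581) or at 6 h in WT (2.65 ± 1.19, edgeR adjusted p = 0.17). With 1 library left out they ranged from 5.00 to 11.0 at 6 h in WT, from 21.8 to 45.45 at 24 h in WT, from 3.30 to 15.05 in the HK2 KO and from 5.79 to 16.7 in the PGP KO. The lowest values came without 6 h replicate 3, DMSO replicate 3, DMSO replicate 2 and 24 h replicate 1 in that order, and 15.05 came without DMSO replicate 1 of the HK2 KO. Without DMSO replicate 1, WT and the PGP KO had 0 counts in DMSO and no ratio was formed.

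The table also held 25 rows named as processed pseudogenes of FTH1, copies of its message set into other places of the genome. Of these, 14 had counts, 1209 in all, so the FTH1 row held 6.13% of the family's sum. FTH1P8 had 26 counts over WT in DMSO and 82 at 24 h, and FTH1P2 had 12 and 61. Of the rows with counts, 13 were higher at 24 h than in DMSO in WT, 13 in the HK2 KO and 12 in the PGP KO. Summed with these rows, FTH1 in WT stood at 3.97, 5.01 and 5.81 CPM in DMSO, at 6.62, 5.46 and 9.75 CPM at 6 h, and at 19.3, 24.4 and 24.3 CPM at 24 h. The sum stood at 4.69, 4.07 and 4.61 CPM in DMSO and 23.03, 23.5 and 32.0 CPM at 24 h in the HK2 KO, and at 6.15, 7.44 and 4.17 CPM and 18.01, 14.4 and 17.3 CPM in the PGP KO. All 24 h libraries were above all others. The summed row rose at 24 h by 2.19 ± 0.23 in WT (edgeR adjusted p = 2.42e-07), by 2.56 ± 0.23 in the HK2 KO (edgeR adjusted p = 4.98e-08) and by 1.48 ± 0.24 in the PGP KO (edgeR adjusted p = 4.64e-05). At 6 h it stood at 0.56 ± 0.25 (edgeR adjusted p = 0.12). The response of the PGP KO minus that of WT was -0.70 ± 0.34 and was not called.

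Whether the pseudogene rows hold reads of FTH1 was not tested. In GENCODE 29 the last 300 bases of the FTH1 transcript lie wholly under an exon of BEST1 on the opposite strand, and the BEST1 row had 189 counts in all. Whether reads were counted by strand is not given in the sources used here, and the part of this overlap in the low FTH1 count was not tested. The level of the FTH1 row is therefore not read as the level of its message. FTL did not share this pattern: its own row held 99.9% of the sum with 16 pseudogene rows, of which 3 had counts (451 in all). In the last 300 bases of FTL, 0.797% of 50-base windows were identical in another gene. FTLP2 and FTLP3 matched these bases of FTL at 90% identity over 100 bases. In the last 300 bases of FTH1, 0% of windows were identical in another gene. Windows were searched in the sense direction only, so the overlap with BEST1 on the opposite strand does not enter this share. Only BEST1 matched FTH1 at 90% identity over 100 bases, and 0 of the FTH1 pseudogenes did. Only the last 300 bases of a chosen transcript of each gene were compared. Whether other stretches of FTH1 match its pseudogenes was not tested. In the 8 members other than FTL and FTH1 no other gene matched at that identity.

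**Figure D2:**
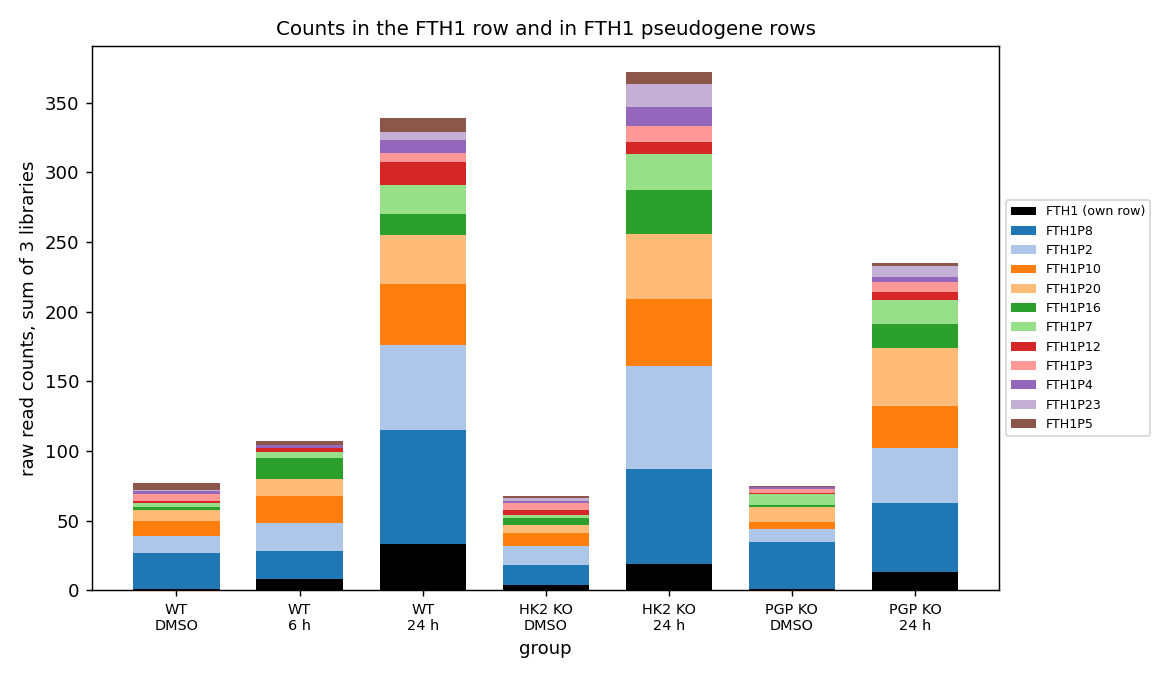
Raw read counts, summed over the 3 libraries of each group, in the FTH1 row (black) and in the FTH1 pseudogene rows with at least 30 counts in all (colours). The bars start at 0; most counts of the family lie in pseudogene rows, and the 24 h bars are taller than the DMSO bars in each genotype.

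NCOA4, the receptor that delivers ferritin to the lysosome, and SLC40A1, the iron exporter ferroportin, were listed at 0 in all 21 libraries. A count of 0 in 102475730 counts allows up to 3 counts, or 0.0293 CPM, and per group it allows 0.190 to 0.222 CPM, for counting error only. Whether the row listed for NCOA4 (ENSG00000266412) is the one that received that gene's reads in the authors' annotation was not tested. Nothing is said of how either gene responded.

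ACO1 encodes IRP1, which is a cytosolic aconitase while it holds an iron-sulfur cluster and binds RNA without it. Its levels in WT were 16.7, 14.8 and 18.1 CPM in DMSO, 15.6, 11.6 and 14.6 CPM at 6 h, and 25.3, 25.2 and 25.1 CPM at 24 h. ACO1 in the HK2 KO went from 16.5, 14.9 and 11.9 CPM in DMSO to 26.1, 23.5 and 21.5 CPM at 24 h, and in the PGP KO from 12.8, 14.2 and 16.9 CPM to 22.4, 22.8 and 27.5 CPM. As for FTL, the 24 h libraries of all genotypes lay above all DMSO and 6 h libraries. ACO1 rose at 24 h by 0.60 ± 0.16 in WT (edgeR adjusted p = 0.00568), by 0.71 ± 0.16 in the HK2 KO (edgeR adjusted p = 0.00193) and by 0.72 ± 0.16 in the PGP KO (edgeR adjusted p = 0.00167). At 6 h it stood at -0.25 ± 0.17 (edgeR adjusted p = 0.303), and from 6 h to 24 h it rose by 0.85 ± 0.16 (edgeR adjusted p = 0.000782). The responses of the knockouts differed from that of WT by 0.11 ± 0.23 (HK2 KO, 95% interval -0.36 to 0.58) and 0.12 ± 0.23 (PGP KO, -0.35 to 0.59).

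IREB2 encodes IRP2, which binds iron-responsive elements and is controlled by its own breakdown. IREB2 in WT stood at 121, 114 and 108 CPM in DMSO, at 109.7, 125 and 104 CPM at 6 h, and at 100.5, 82.3 and 98.2 CPM at 24 h. It stood at 134, 108 and 121 CPM in DMSO and 90.45, 104 and 98.0 CPM at 24 h in the HK2 KO, and at 119.6, 94.1 and 105 CPM and 89.0, 96.2 and 88.5 CPM in the PGP KO. The 24 h libraries lay below the DMSO libraries in WT and in the HK2 KO and overlapped them in the PGP KO. In no single genotype was the difference called: it was -0.29 ± 0.12 in WT (edgeR adjusted p = 0.0642), -0.31 ± 0.12 in the HK2 KO (edgeR adjusted p = 0.0505) and -0.22 ± 0.12 in the PGP KO (edgeR adjusted p = 0.166). Averaged over the 3 genotypes, IREB2 fell by 0.27 ± 0.07 (edgeR adjusted p = 0.00162). At 6 h it stood at -0.02 ± 0.12 (edgeR adjusted p = 0.935). The WT value at 24 h passed when only WT in DMSO and at 24 h were fitted (edgeR adjusted p = 0.0453). That of the HK2 KO passed with RLE size factors (0.045), in DESeq2 (0.038), with the replicate number as a block (0.0421) and without HK2 KO DMSO replicate 2 (0.0313).

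FBXL5 is the iron-sensing subunit of the ubiquitin ligase that marks IRP2 for breakdown when iron is plentiful. FBXL5 in WT stood at 16.3, 16.1 and 19.4 CPM in DMSO, at 18.6, 15.1 and 16.7 CPM at 6 h, and at 23.4, 21.6 and 21.2 CPM at 24 h. Its levels in the HK2 KO were 20.3, 16.6 and 15.2 CPM in DMSO and 25.2, 20.6 and 22.4 CPM at 24 h, and in the PGP KO 14.45, 18.1 and 14.05 CPM and 32.9, 30.45 and 27.7 CPM. The 3 libraries of the PGP KO at 24 h were the highest of all 21, and the 24 h libraries of WT and the HK2 KO lay between them and the rest. FBXL5 rose in the PGP KO by 0.96 ± 0.16 (edgeR adjusted p = 5.32e-05), and by 0.94 without replicate 2 at 24 h, the library with T cell counts (edgeR adjusted p = 0.000333). It stood at 0.35 ± 0.15 in WT at 24 h (edgeR adjusted p = 0.0892), at 0.39 ± 0.15 in the HK2 KO (edgeR adjusted p = 0.0607) and at -0.04 ± 0.16 in WT at 6 h (edgeR adjusted p = 0.869). The summed erythroid markers, at 38 to 55 counts in the PGP KO at 24 h against 20 to 29 in DMSO, moved with this result, and their part in it was not tested. The HK2 KO value passed with the replicate number as a block (0.0483) and without HK2 KO DMSO replicate 1 (0.0352). The response of the PGP KO exceeded that of WT by 0.61 ± 0.22 (95% interval 0.16 to 1.06, unadjusted p = 0.0102 in edgeR). It ranked 31 of 11610 genes by p in that comparison and was not called after adjustment, so a larger FBXL5 response in the PGP KO was not shown.

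**Figure D3:**
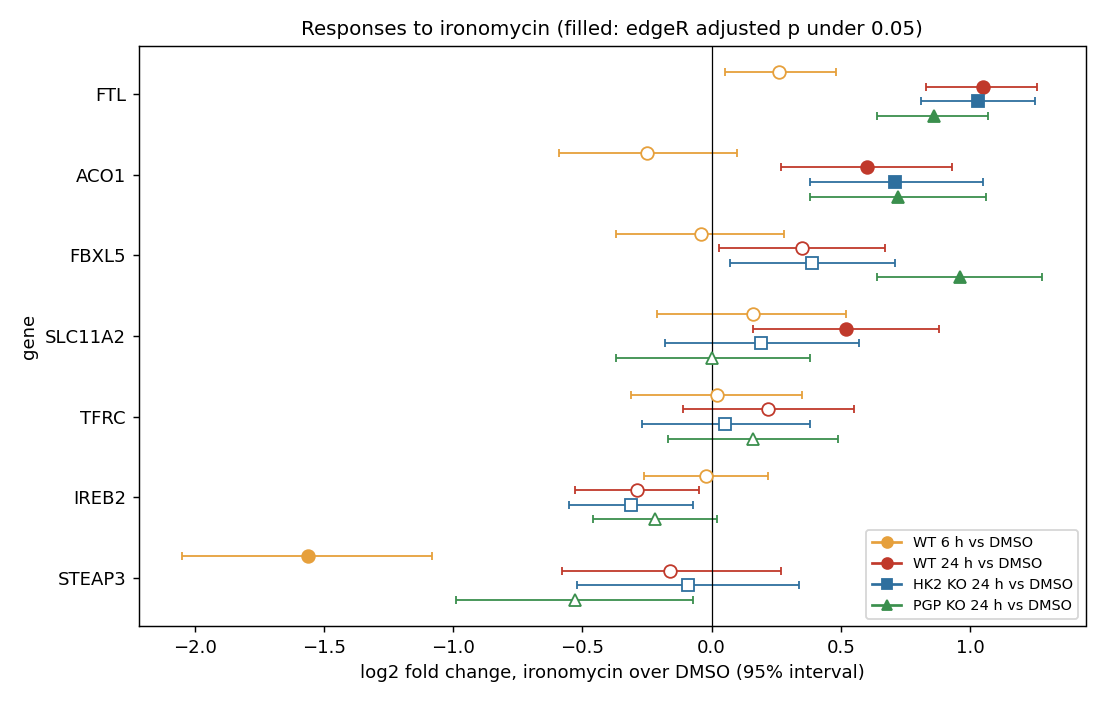
Log2 fold changes of the 7 tested members, ironomycin over DMSO, with 95% intervals from the edgeR fit (n = 3 libraries per group); filled symbols are called and open symbols are not. FTL and ACO1 are called at 24 h in all 3 genotypes, STEAP3 only at 6 h, FBXL5 in the PGP KO and SLC11A2 in WT; differences between genotypes were not called.

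Counted together, 1 of the 7 tested members was called at 6 h in WT, against 22% of all genes tested. The median log2 fold change of the members was -0.02 and that of all genes 0.02. At 24 h 3 were called in WT, all higher, against 29.8% of all genes called and 15.3% called higher (medians 0.35 and 0.03). In the HK2 KO 2 were called, both higher, against 29.4% and 15.9% higher (medians 0.19 and 0.03), and in the PGP KO 3, all higher, against 31.5% and 16.1% higher (medians 0.16 and 0.04). From 6 h to 24 h in WT 3 were called, all higher, against 16.6% of all genes called, 8.48% higher and 8.08% lower (medians 0.40 and 0.01). The 6 h and 24 h comparisons in WT share their DMSO libraries, and no DMSO group matches the step from 6 h to 24 h. In the mean of the 24 h responses of the 3 genotypes 4 were called, against 53.8% of all genes: FTL (0.98 ± 0.06), ACO1 (0.68 ± 0.09) and FBXL5 (0.57 ± 0.09) rose, and IREB2 fell. In that mean SLC11A2 stood at 0.24 ± 0.10 (edgeR adjusted p = 0.0561) and STEAP3 at -0.26 ± 0.12 (edgeR adjusted p = 0.0798). SLC11A2 passed there with the replicate number as a block (0.0412), in the fit of DMSO and 24 h libraries only (0.0439), and without the HK2 KO's DMSO replicate 1 (0.0219) or 24 h replicate 2 (0.0398). STEAP3 passed without 24 h replicate 1 of WT (0.0398), 24 h replicate 1 of the HK2 KO (0.0388) or 24 h replicate 3 of the PGP KO (0.0369).

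In DMSO, edgeR called 0 members between the HK2 KO and WT, against 0.00861% of all genes (1 gene), and 0 between the PGP KO and WT, against 0%. Their log2 differences lay between -0.20 and 0.08 in the HK2 KO and between -0.21 and 0.08 in the PGP KO. At an unadjusted p under 0.05 there were 0 members in either comparison, against 606 and 648 of all genes, and DESeq2 also called 0 members. Both comparisons use the same WT libraries. For the response of each KO minus that of WT, edgeR and DESeq2 called 0 members, against 0% of all genes. There an unadjusted p under 0.05 was found for 0 members and 267 of all genes in the HK2 KO, and for 1 member, FBXL5, and 221 of all genes in the PGP KO.

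Of 45 other genes of iron and heme handling, 23 were tested. At 6 h in WT 1 was called higher and 4 lower, against 10.9% and 11.1% of all genes. SLC25A37, which encodes the mitochondrial iron importer mitoferrin 1, rose by 0.37 ± 0.09 (edgeR adjusted p = 0.00766). The heme exporter gene FLVCR1 fell by 0.92 ± 0.24 (edgeR adjusted p = 0.00912). SKP1 and CUL1, which encode the ligase subunits that work with FBXL5, fell by 0.32 ± 0.10 and 0.43 ± 0.14 (edgeR adjusted p = 0.0238 and 0.0249). At 24 h 3 were called higher and 1 lower in WT, 3 and 0 in the HK2 KO, and 3 and 1 in the PGP KO. Of all genes, 15.3%, 15.9% and 16.1% were called higher and 14.6%, 13.5% and 15.4% lower, in the same order. SLC25A37 rose at 24 h by 0.66 ± 0.09, 0.67 ± 0.09 and 0.69 ± 0.09 in the 3 genotypes in that order. SLC48A1, which encodes a heme transporter of the lysosome, rose by 1.20 ± 0.21, 1.27 ± 0.21 and 1.11 ± 0.21. Both genes were higher in all 3 libraries at 24 h than in any DMSO library of the same genotype. CCDC115, an assembly factor of the lysosomal proton pump, rose by 0.40 ± 0.14 in WT and 0.46 ± 0.14 in the PGP KO (edgeR adjusted p = 0.0351 and 0.0169). PCBP2, an iron chaperone, rose by 0.32 ± 0.09 in the HK2 KO (edgeR adjusted p = 0.00793), and CUL1 fell by 0.37 ± 0.14 in the PGP KO (edgeR adjusted p = 0.0416). The median over the 23 genes was -0.10 at 6 h and 0.09, 0.19 and 0.17 at 24 h. From 6 h to 24 h in WT 5 were called higher and 0 lower, against 8.48% and 8.08% of all genes. They were led by SLC48A1 (1.34 ± 0.22), FLVCR1 (1.04 ± 0.24), CCDC115 (0.60 ± 0.14) and PCBP1, another iron chaperone (0.54 ± 0.16). PCBP1 had been called lower at 6 h against DMSO (-0.47 ± 0.16, edgeR adjusted p = 0.0401), a value not run under the alternatives. At 24 h against DMSO, FLVCR1 and PCBP1 stood at 0.12 ± 0.23 and 0.07 ± 0.16 (edgeR adjusted p = 0.745 and 0.785). In the mean 24 h response 7 were called higher and 3 lower, against 28.8% and 25% of all genes. SLC25A37 (0.67 ± 0.05), SLC48A1 (1.20 ± 0.12) and CCDC115 (0.39 ± 0.08) rose there, and CUL1 fell by 0.30 ± 0.08. Between each KO and WT in DMSO, and in each response minus that of WT, 0 of the 23 were called in edgeR, where an unadjusted p under 0.05 was found for 2, 2, 1 and 0 of them. PCBP1 and PCBP2, the most abundant of the list over all libraries, stood at 0.04 ± 0.16 and -0.04 ± 0.09 in the HK2 KO against WT in DMSO, and at -0.06 ± 0.16 and 0.09 ± 0.09 in the PGP KO. Their responses differed from those of WT by 0.12 ± 0.23 and 0.24 ± 0.12 in the HK2 KO and by 0.05 ± 0.23 and 0.09 ± 0.12 in the PGP KO. The PCBP1 values changed sign with single libraries left out.

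Several of these smaller calls lay near the threshold and were lost in some fits with 1 library left out, while every such value kept its sign. Over those fits SKP1 at 6 h lay between -0.38 and -0.27, CUL1 between -0.47 and -0.38 at 6 h and between -0.45 and -0.33 in the PGP KO, and CCDC115 between 0.26 and 0.46 in WT and between 0.32 and 0.54 in the PGP KO. The SKP1 call at 6 h was lost without DMSO replicate 1 (edgeR adjusted p = 0.108) or 2 (0.0542) and without 6 h replicate 2 (0.0557) or 3 (0.0541), and that of CUL1 without DMSO replicate 3 (0.106) or 6 h replicate 3 (0.0791). CCDC115 lost its WT call without any 1 of 5 libraries, all but 24 h replicate 3 (0.0535 to 0.212), and its PGP KO call without DMSO replicate 1 (0.0511) or 2 (0.0643) or 24 h replicate 3 (0.115). CUL1 lost its PGP KO call without DMSO replicate 2 (0.088) or 3 (0.125) or 24 h replicate 1 (0.0862) or 2 (0.0918). Between 6 h and 24 h, PCBP1 lost its call without 6 h replicate 2, the library that stood apart (0.33, edgeR adjusted p = 0.115), without 24 h replicate 2 (0.062) or 3 (0.0908) and in those groups alone (0.134). FLVCR1 lost its call there without 24 h replicate 2 (0.78, edgeR adjusted p = 0.0515) and CCDC115 in those groups alone (0.0765). With no low-count filter the calls of SLC25A37 at 6 h (0.0834), SKP1 (0.0794), CUL1 at 6 h (0.0632) and in the PGP KO (0.135), CCDC115 in WT (0.117) and PCBP2 (0.125) were lost. In a fit of WT in DMSO and at 6 h alone, SLC25A37 (0.0633), SKP1 (0.1) and CUL1 (0.0802) were lost too. The calls of SLC48A1, and those of SLC25A37 at 24 h against DMSO, were kept under every alternative run.

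For each member called in some comparison, the genes with the most similar profile were found by Pearson correlation of log2 CPM over the 21 libraries, among 9136 genes whose mean reached 5 CPM. The libraries share the 7 groups, so these values describe group patterns and carry no test. Closest to FTL were PGD (0.984), CTSD (0.983) and AGT (0.980), which encode an enzyme of the pentose phosphate pathway, the lysosomal protease cathepsin D and angiotensinogen. Closest to ACO1 were BLOC1S4 (0.923), DYM (0.919) and GSR (0.918), the last of which encodes glutathione reductase. FBXL5 was nearest to TMBIM6 (0.866), SQOR (0.855) and STARD4 (0.852), and IREB2 to GFM1 (0.846), HNRNPAB (0.835) and E2F8 (0.829). STEAP3 was nearest to AFMID (0.901), SRGN (0.890) and TMEM33 (0.879). For SLC11A2 the highest values were lower, with NCK2 (0.736), HNRNPLL (0.722) and INSIG2 (0.707).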

How the data were processed

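Messenger RNA of MV4-11 cells was measured in 21 libraries made with a 3′ tag kit (Lexogen QuantSeq, per the labels' protocols). The deposited table holds unnormalised counts of reads for each Ensembl gene. Per the submitters' processing notes, reads were demultiplexed with bcl2fastq 2.20.0.422 and handled with HISAT2 and HTSeq on hg19. The annotation and the strand setting of the counting are not given in the sources used here. Of 54042 genes, 51854 were matched to a symbol (193 of them only in GENCODE 29), and the other 2188 held 8 counts in all. Intervals and floors from counts cover counting error only.

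Tests used edgeR 4.0.16, with limma 3.58.1, in R 4.3.3. Libraries were scaled by TMM, genes were filtered by filterByExpr (minimum count 10, minimum total 15) and a quasi-likelihood model gave each group 1 mean over all 21 libraries. The common biological coefficient of variation was 0.149. The 10 comparisons were each ironomycin group against DMSO of its genotype, 24 h against 6 h, each KO against WT in DMSO, each KO's 24 h response minus that of WT, and the mean 24 h response. The pipeline was tested on simulated data. The members and gene lists were chosen with earlier results of these data known.

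All 10 members are named. Of the other iron genes, those called are named in order of adjusted p, up to 4 per comparison, or the 2 most abundant where none was called, and for each called member the 3 genes with the highest correlation. PCBP1 and FLVCR1 are also given against DMSO beside their change from 6 h to 24 h. The values of 1 other iron gene, called in WT at 24 h, are not reported here. The files' build differs from GENCODE 29 on GRCh38, which served for names, transcript sequences and the position of the motif matches. What a replicate number stands for is not in the labels. In the PGP KO, DMSO and 24 h libraries of the same number deviated together (correlations 0.243, 0.164 and 0.247). The main fit did not pair them. A replicate block was run only as an alternative, and it changed no call of a member there. Alternatives were DESeq2 1.42.0, RLE scaling, all genes kept without a filter, a replicate block, fitting only the groups compared, and leaving out each library. Tables were made with Python 3.11.15 and pandas 2.3.3, and figures with matplotlib 3.10.9.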

Additional observations from a re-analysis of the deposited data

How the results depend on the processing

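Under RLE size factors, no filter, DESeq2, a replicate block, the compared groups alone and each library left out, the calls of FTL, ACO1 and summed FTH1 at 24 h, STEAP3 at 6 h and FBXL5 in the PGP KO were kept wherever they were run. The settings for summed FTH1, without DESeq2 and the groups alone, were added after the data were seen. With the replicate block, 2 members were called at 6 h in WT (1 to 2 with 1 library left out). At 24 h in the HK2 KO 4 were called with it (2 to 4 with 1 library left out). The 4 called without DMSO replicate 1 of the HK2 KO include a member that failed the low-count filter of the main fit. In these comparisons the block also called 26.7% and 33.5% of all genes, against 22% and 29.4% without it. FTL at 6 h passed with the block (edgeR adjusted p = 0.0406). The check for deviating together asked that the correlation of every replicate number pass a set minimum. Outside the 24 h response of the PGP KO, no comparison checked met it. Single correlations could still be higher there: between DMSO and 6 h in WT they were 0.049, 0.164 and 0.347. A structure shared by replicate number is therefore not excluded in the other comparisons. The block was only an alternative in every comparison. Over all genes, the compared groups alone gave 1212 calls at 6 h and 749 for 24 h against 6 h (1271 to 2220 with 1 library left out; 1271 without 24 h replicate 3). For the HK2 KO against WT in DMSO there were 59 calls with no filter, 19 with the replicate block, 17 in the groups alone, 15 in DESeq2 and 0 to 8 with 1 library left out. For the PGP KO against WT there were 96 with no filter and 2 in the groups alone. Differences in response gave 17 (HK2 KO) and 18 (PGP KO) calls with no filter, and 1 (PGP KO) in the groups alone. The cause of these shifts was not tested.

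All changes of sign were in values that were not called. SLC11A2 at 24 h in the PGP KO was -0.011 with RLE size factors, -0.00023 with no filter, -0.00046 with the replicate block, -0.0071 in the groups alone and -0.011 in DESeq2. In the HK2 KO against WT in DMSO, FTL was 0.0012 with the replicate block and 0.0090 in the groups alone, and FBXL5 was -0.0016 (RLE), -0.0044 (no filter), -0.0058 (replicate block) and -0.0064 (DESeq2). SLC11A2 in the PGP KO against WT in DMSO was -0.014 with no filter. With 1 library left out, the 6 h values ranged from -0.079 to 0.198 for TFRC, -0.098 to 0.046 for IREB2 and -0.119 to 0.048 for FBXL5. At 24 h they ranged from -0.039 to 0.152 for TFRC in the HK2 KO and -0.129 to 0.083 for SLC11A2 in the PGP KO. For the HK2 KO against WT in DMSO the ranges were -0.054 to 0.041 (FTL), -0.344 to 0.0081 (SLC11A2), -0.106 to 0.041 (STEAP3), -0.0061 to 0.151 (IREB2) and -0.121 to 0.098 (FBXL5). For the PGP KO against WT in DMSO they were -0.017 to 0.187 (TFRC) and -0.092 to 0.12 (SLC11A2). For the HK2 KO response minus that of WT they were -0.059 to 0.035 (FTL), -0.054 to 0.192 (STEAP3), -0.104 to 0.065 (IREB2), -0.015 to 0.211 (ACO1) and -0.057 to 0.163 (FBXL5). For the PGP KO response they were -0.205 to 0.046 (TFRC) and -0.020 to 0.159 (IREB2). For PCBP1 the ranges were -0.015 to 0.1504 and -0.1644 to 0.051 in the HK2 KO and the PGP KO against WT in DMSO, and -0.0064 to 0.2403 and -0.063 to 0.153 for their responses minus that of WT. STEAP3 had 12 to 63 counts per library, which limits its precision. For FTH1, NCOA4 and SLC40A1 the low or zero counts give wide intervals or only an upper limit, and whether depth is their cause was not tested.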

Other observations

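Some values of replicate 2 of WT at 6 h lay far from the other libraries of its group. The metal ion transporter genes SLC39A14 and SLC39A8 stood at 13.1 and 7.42 CPM there, against 53.4 and 58.9 CPM and 24.1 and 33.2 CPM in replicates 1 and 3. HK2 stood at 11.1 CPM there, against 31.2 and 39.9 CPM. In groups of 3 libraries no outlier test was made.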
